A study of Homo sapiens with 18 samples.

Results

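The 32 genes described here are known targets of the transcription factor p53 together with the receptors of the death ligand TRAIL. They were chosen by gene symbol from a written list, and all 32 were found among the 27574 genes of the deposited tables. By role, 10 act in cell cycle arrest and growth control, 3 in feedback on p53, 7 in apoptosis through mitochondria or in related survival control, 5 are death receptors, 4 act in DNA repair and 3 in redox balance and metabolism. The rule itself uses no measured value, but the genes were chosen with earlier results of these data known. Shares of called genes set beside those of all genes are therefore descriptive.

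The cells were LNCaP, a human prostate cancer line with a functional androgen receptor and wild-type p53. All groups were kept in charcoal-stripped serum, which is poor in steroid hormones, for 48 h and then treated for 6 h. There were 18 samples in 6 groups of 3, labelled as biological replicates. They received the vehicles alone (ethanol and DMSO), 10 nM dihydrotestosterone (DHT, a potent natural androgen), DHT with 1.5 µM enzalutamide (an androgen receptor antagonist used in the clinic), DHT with 3 µM VPC-13789, enzalutamide without DHT, or VPC-13789 without DHT. The doses of both compounds are stated for the groups with DHT and are taken to be the same without it. Both were used at their published IC90 values, so their concentrations differ. All cultures are of 1 cell line, so p-values measure the spread between its cultures.

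When DNA is damaged or growth is disturbed, p53 is held less tightly by its ligase MDM2 and switches on genes that stop the cell cycle, repair DNA or start apoptosis. Some of its targets, MDM2 first among them, act back on p53 and end the response. Of the TRAIL receptors, TNFRSF10A (DR4) and TNFRSF10B (DR5) carry a death domain and pass the signal on to caspases. TNFRSF10C and TNFRSF10D bind TRAIL without passing on a full death signal and are called decoy receptors. Several of these genes are also controlled by other stress and hormone pathways, so a change in one of them is not specific to p53.

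The results below turn on TNFRSF10B and on GADD45B and GADD45G, a pair of small stress genes whose products bind kinases and cell cycle proteins. The promoters of the GADD45 pair are shown because both genes were called in at least 1 comparison. TNFRSF10B was called as well, but its promoter is not shown here, so these sequences say nothing about it. Each window runs from 250 bases before to 50 bases after the RefSeq transcription start on GRCh38.p14, on the plus strand. GADD45B lies at chr19:2475877-2476176 and GADD45G at chr9:89604762-89605061. Capitals mark the motif CACGTG, the motif CCAAT and the motif TATAA, which were picked after the sequences were seen.
GADD45B: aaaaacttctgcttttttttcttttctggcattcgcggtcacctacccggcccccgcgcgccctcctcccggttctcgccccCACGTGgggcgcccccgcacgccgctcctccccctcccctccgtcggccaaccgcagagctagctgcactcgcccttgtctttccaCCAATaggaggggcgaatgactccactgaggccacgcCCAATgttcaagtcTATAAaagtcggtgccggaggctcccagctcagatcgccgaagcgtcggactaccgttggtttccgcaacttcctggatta
GADD45G: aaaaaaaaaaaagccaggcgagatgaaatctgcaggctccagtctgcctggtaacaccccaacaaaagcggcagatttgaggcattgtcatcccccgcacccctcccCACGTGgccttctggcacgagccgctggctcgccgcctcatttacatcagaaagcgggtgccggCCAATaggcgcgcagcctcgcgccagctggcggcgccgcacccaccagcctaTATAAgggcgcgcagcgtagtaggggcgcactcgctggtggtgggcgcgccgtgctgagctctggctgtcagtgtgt

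Both windows hold all 3 motifs. Over the 35116 promoter windows of RefSeq genes, read on both strands, 7.26% held CACGTG, 34.6% CCAAT and 20.4% TATAA. The GADD45B window had a GC content of 61.7% with 27 CpG pairs and the GADD45G window 62.7% with 25, against medians of 58.7% and 14 over all windows. Neither window held the androgen receptor half-site AGAACA (or TGTTCT on the other strand), which 14.8% of all windows hold, or the p53 half-site. The lack of a match says only that these letters are not in these 300 bases.

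Among the 24 of the 32 genes with a RefSeq window used here (35 windows), 17.1% of the windows held a p53 half-site, against 6.63% of all windows. For the androgen receptor half-site it was 5.71% (FAS and XPC) against 14.8%. The genes with a p53 half-site were AEN, DDB2, FAS, FDXR, PLK2 and SESN1. Their sites are shown, with the 10 matching bases in capitals, because p53 is the factor that the genes were listed for. The coordinates given are those of the 30 printed bases, with 10 on each side of the matching ones. The AEN site lies at chr15:88621296-88621325 and the DDB2 sites at chr11:47214969-47214998 and chr11:47214980-47215009, on the plus strand. The FAS site lies at chr10:88991299-88991328 on the plus strand. The FDXR site at chr17:74872986-74873015, the PLK2 site at chr5:58460199-58460228 and the SESN1 site at chr6:109009018-109009047 are on the minus strand.
AEN: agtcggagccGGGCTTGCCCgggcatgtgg
DDB2, the first of its sites: aagctggtttGAACAAGCCCtgggcatgtt
DDB2, the other site: aacaagccctGGGCATGTTTggcgggaagt
FAS: cggaactcctGGACAAGCCCtgacaagcca
FDXR: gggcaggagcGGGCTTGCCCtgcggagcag
PLK2: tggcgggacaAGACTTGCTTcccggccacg
SESN1: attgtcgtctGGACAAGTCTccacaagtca

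The printed flanks of the DDB2 sites overlap, while the matches themselves do not. A match of letters is a description and not a site that p53 was measured to bind. None of these 6 genes was called in any of the 9 comparisons described below. At an unadjusted p under 0.05, PLK2 and SESN1 are the ones that appear, with values given below.

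The data used are the authors' own DESeq2 comparisons, which give for each gene its average normalized count over all samples, a log2 fold change with its standard error (SE) and an adjusted p-value. A gene was called where the adjusted p was under 0.05. Single libraries have no values here, so their depth is unknown; the averages of all genes summed to 21181217. The treatment was checked on TMPRSS2, an androgen-induced protease gene, which in the authors' deposited tables had log2 changes of 3.23 with DHT, -0.91 with enzalutamide over DHT and -0.59 with VPC-13789 over DHT, all called. KLK3, which encodes prostate-specific antigen, rose by 1.39 with DHT (SE 0.28, adjusted p = 0.00011, DESeq2), and neither compound over DHT called it, with log2 changes of -0.44 (adjusted p = 1) and 0 (adjusted p = 1) in the authors' deposited tables. The 8 markers of a luminal prostate line averaged between 1510 and 28000 normalized counts. Of 18 markers of basal, stromal, blood, endothelial and neuroendocrine cells, 10 were in the tables, and VWF (1010) and COL1A1 (316) were the ones averaging at least 100, while KRT5, TP63, COL1A2, CD3E, HBB, PECAM1 and CDH5 were among those with no row. The collagen gene COL3A1 fell with DHT (log2 -1.48, SE 0.39, adjusted p = 0.00916, DESeq2, in the authors' deposited table). The summed level of the 10 markers lay between 1243 in the DHT group and 1914 in the group given VPC-13789 with DHT. Their part in the results was not tested.

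Levels below are normalized counts for each group, recovered from the average over all samples and the 5 deposited log2 changes, and their error is the SE of the log2 level. A replicate coefficient of variation (CV) was recovered from the SE of the 5 deposited comparisons. It is the variation beyond counting noise in the authors' DESeq2 fit, a single value per gene for all groups. It is thus not a spread measured between cultures, and the error of the levels rests on it too. Of the 32 genes, 26 averaged at least 100, and the lowest average was 36.7, for TNFRSF10C. The shares of all genes at an unadjusted p cover genes of any average, and 15433 of the 27574 averaged at least 10. Shares of called genes cover all genes with an adjusted p. Neither kind of share is matched to the 32 genes by expression, and genes with low counts are harder to call.

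DHT was compared with vehicle to ask which of these genes answered androgen within 6 h. Of the 32 genes, 2 rose and none fell in the authors' deposited table. These were TNFRSF10B and GADD45B, which is 6.25% of the genes against 1.87% of all genes tested (1.47% higher and 0.392% lower). TNFRSF10B was the death receptor with a clear rise, and GADD45B was the member with the highest log2 change. The classical p53 targets of cell cycle arrest and feedback were not called, among them CDKN1A (p21, an inhibitor of cyclin-dependent kinases) and MDM2. At an unadjusted p under 0.05, 5 of the 32 genes passed, all of them higher (TNFRSF10B, GADD45B, GADD45G, TNFRSF10A and PLK2), against 4.43% of all genes in either direction. The median log2 change was -0.01 over the 32 genes and 0.00 over the 15433 genes averaging at least 10.

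**Figure D1:**
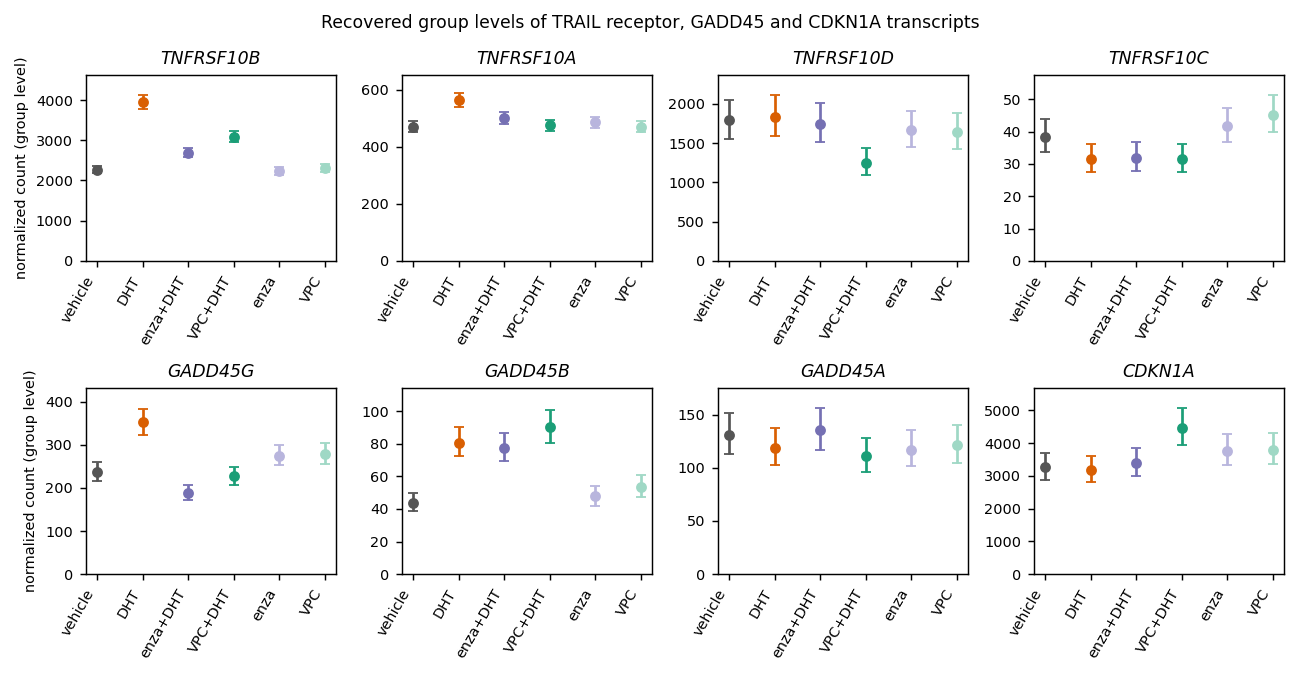
Recovered levels (normalized counts, each panel's linear axis starting at 0) of the 4 TRAIL receptors, the 3 GADD45 genes and CDKN1A in the 6 groups, with "enza" for enzalutamide and "VPC" for VPC-13789; points are group levels and bars show 1 SE of the log2 level. TNFRSF10B stands at 3948 with DHT alone and between 2232 and 2311 in the 3 groups without DHT, with the groups given DHT and a compound at 2694 and 3093.

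TNFRSF10B (ENSG00000120889.12) is the death receptor DR5, which carries the TRAIL signal to caspase-8. In GENCODE 29 (GRCh38) it spans 23020133 to 23069179 of chromosome 8, minus strand. Its recovered level was 2269 with vehicle, 3948 with DHT, 2694 with enzalutamide and DHT, 3093 with VPC-13789 and DHT, 2232 with enzalutamide alone and 2311 with VPC-13789 alone, each with an SE of 0.06 on the log2 scale. The DHT group was the highest, both groups with DHT and a compound lay between it and vehicle, and the 3 groups without DHT lay close together. In the authors' deposited table TNFRSF10B rose 1.74-fold with DHT (log2 0.80, SE 0.09, adjusted p = 6.64e-18, DESeq2). The replicate CV was 7.05%, among the lowest of the 32 genes. These were bulk cultures, so more cells expressing a gene and more RNA per cell cannot be told apart.

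TNFRSF10A (DR4), the other TRAIL receptor with a death domain, was not called. Its recovered level was 470 with vehicle, 564 with DHT, 500 with enzalutamide and DHT, 476 with VPC-13789 and DHT, 486 with enzalutamide alone and 471 with VPC-13789 alone. The level was highest in the DHT group, as for TNFRSF10B, but over a narrower range. The authors' deposited table gives it 0.26 on the log2 scale with DHT (SE 0.09, p = 0.00292, adjusted p = 0.125 by DESeq2). Its replicate CV of 6.02% was the lowest of the 32 genes.

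The decoy receptors and FAS, the receptor of the Fas ligand, were not called with DHT. The recovered level of TNFRSF10D was 1787 with vehicle and 1833 with DHT, and its log2 change was 0.04 (SE 0.28) in the authors' deposited table. TNFRSF10C stood at 38.4 with vehicle and 31.4 with DHT, and the authors' deposited table has its log2 change at -0.29 (SE 0.27). FAS stood at 46.4 and 33.4, and the authors' deposited table gives -0.48 (SE 0.61), an interval wide enough to hold changes in either direction. Per kilobase of transcript, the average levels over all samples were 665 for TNFRSF10B, 467 for TNFRSF10D, 182 for TNFRSF10A, 21.4 for TNFRSF10C and 15.8 for FAS. The 4 TRAIL receptor genes are neighbours on chromosome 8 and related in sequence, so reads of shared stretches may be assigned to the wrong one.

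Among the genes of cell cycle arrest and growth control, the 3 GADD45 genes differed from one another. GADD45B spans 2476122 to 2478259 of chromosome 19, plus strand. Its recovered level was 43.8 with vehicle and 80.8 with DHT, and it stayed at 77.7 with enzalutamide and DHT and at 90.3 with VPC-13789 and DHT. Without DHT it was 47.7 with enzalutamide and 53.6 with VPC-13789. All 3 groups with DHT were thus above all 3 groups without it. In the authors' deposited table GADD45B rose 1.85-fold with DHT (log2 0.88, SE 0.25, adjusted p = 0.021, DESeq2). Under a correction for GC content the log2 change was 0.80 and the adjusted p 0.0774, the highest of its 4 alternatives, whose adjusted p otherwise reached down to 0.0163.

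GADD45G spans 89605013 to 89606555 of chromosome 9, plus strand. Its recovered level was 237 with vehicle, 352 with DHT, 189 with enzalutamide and DHT, 227 with VPC-13789 and DHT, 275 with enzalutamide alone and 279 with VPC-13789 alone. The DHT group was the highest and the group with enzalutamide and DHT the lowest. In the authors' deposited table the log2 change with DHT was 0.57 (SE 0.18), just outside the call with an adjusted p of 0.0578 by DESeq2. Over genes averaging at least 10 alone the adjusted p was 0.0456, and over the 4 alternatives it ranged from 0.0456 to 0.261.

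GADD45A, the family member best known as a p53 target, stood at 131 with vehicle and 119 with DHT. The authors' deposited table gives it a log2 change of -0.14 (SE 0.30). CDKN1A stood at 3273 and 3187, with a log2 change in the authors' deposited table of -0.04 and a 95% interval of -0.53 to 0.45. A doubling or halving of CDKN1A thus lies outside the interval. For PLK2, a kinase of the polo family that p53 induces, the authors' deposited table gives 0.50 on the log2 scale (SE 0.22, p = 0.0257, adjusted p = 0.636 by DESeq2). The other genes of this role, BTG2 (an antiproliferative factor), CCNG1 (cyclin G1), PLK3, ZMAT3 (a p53-induced RNA-binding protein) and GDF15 (a secreted stress cytokine), had log2 changes between -0.24 and 0.28.

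In feedback on p53, none of the 3 genes was called with DHT. The authors' deposited table gives MDM2 a log2 change of -0.23 (SE 0.68), PPM1D, a phosphatase that inactivates p53, 0.48 (SE 0.34), and TP53INP1, a cofactor that promotes p53's death programme, -0.93 (SE 0.54). TP53INP1 had the lowest log2 change of the 32 genes, and its recovered level was 3594 with vehicle and 1892 with DHT. Its 95% interval ran from -1.98 to 0.13.

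None of the 7 genes of mitochondrial apoptosis was called with DHT. Their log2 changes in the authors' deposited table ran from -0.33 for BBC3 (PUMA) to 0.57 for PMAIP1 (NOXA), both BH3-only proteins, with 0.10 (SE 0.31) for the pore-forming BAX. AEN (a nuclease), TRIAP1 (a survival factor), PHLDA3 (an inhibitor of AKT) and SPATA18 (a mitochondrial quality control protein) lay between these values. The 4 repair genes XPC and DDB2 (recognition of damage in nucleotide excision repair), POLH (a polymerase that copies past lesions) and RRM2B (a ribonucleotide reductase subunit) had log2 changes between -0.24 and 0.03. The 3 genes of redox balance and metabolism were at -0.48 for SESN1 (a sestrin that restrains mTORC1), 0.21 for TP53I3 (a quinone oxidoreductase) and 0.10 for FDXR (ferredoxin reductase) in the authors' deposited table.

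**Figure D2:**
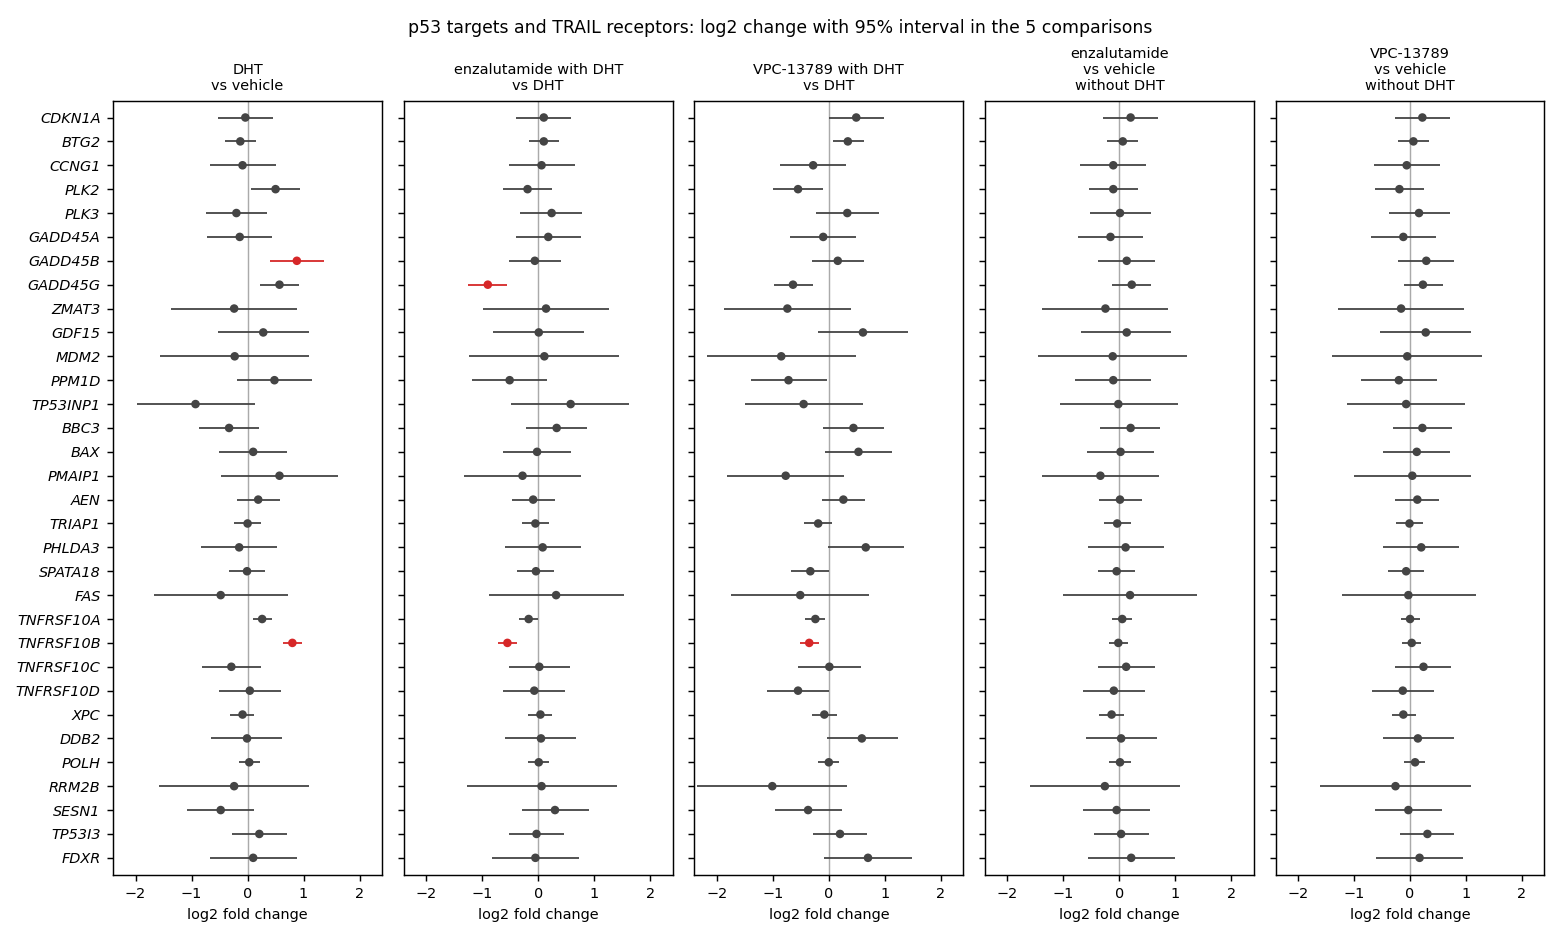
Log2 changes of the 32 genes in the 5 deposited comparisons, ordered by role, with log2 fold change on the horizontal axis and 95% intervals as bars; red points mark genes called at an adjusted p under 0.05. Called genes are TNFRSF10B in the 3 comparisons that involve DHT and share the DHT group, GADD45B with DHT and GADD45G with enzalutamide over DHT.

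Enzalutamide with DHT was compared with DHT to ask which genes the antagonist moved in the presence of androgen. The genes that fell in the authors' deposited table were 2 of the 32, TNFRSF10B and GADD45G, and none rose. This is 6.25% of the genes against 0.428% of all genes tested (0.403% lower and 0.0249% higher). This comparison shares the DHT group with that of DHT against vehicle, so a high or low value in that group enters both with opposite sign. TNFRSF10B fell 1.47-fold (log2 -0.55, SE 0.09, adjusted p = 1.88e-07, DESeq2, in the authors' deposited table). GADD45G fell 1.87-fold (log2 -0.90, SE 0.18, adjusted p = 2.06e-04, DESeq2, in the authors' deposited table). Its recovered level was 189, and 237 with vehicle, each with an SE of 0.13 on the log2 scale. The difference between these 2 groups was not tested. GADD45B, at -0.06 (SE 0.23) in the authors' deposited table, was not called.

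TNFRSF10A had a log2 change of -0.17 (p = 0.0497, adjusted p = 1 by DESeq2) in the authors' deposited table, and with TNFRSF10B and GADD45G it makes up the 3 genes that passed an unadjusted p of 0.05, against 2.13% of all genes. The median log2 change was 0.02 over the 32 genes and -0.01 over all genes averaging at least 10. TP53INP1, lowest with DHT, had the highest log2 change here in the authors' deposited table, 0.58 (SE 0.54), with the DHT group again shared. CDKN1A was at 0.10 (SE 0.25) and MDM2 at 0.11 (SE 0.68) in the authors' deposited table. The 4 repair genes lay between 0.01 and 0.06.

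VPC-13789 with DHT was compared with DHT in the same way. The DHT group is shared here too, with the comparisons of DHT against vehicle and of enzalutamide over DHT. Calls of 1 gene in several of these are thus not separate support. TNFRSF10B was the 1 gene of the 32 that fell in the authors' deposited table and none rose, which is 3.12% of the genes against 0.275% of all genes tested (0.249% lower and 0.0262% higher). TNFRSF10B fell 1.28-fold (log2 -0.35, SE 0.09, adjusted p = 0.019, DESeq2, in the authors' deposited table). After centring on the median gene, with adjustment over all genes, its log2 change was -0.33 and its adjusted p 0.075, the highest of the 4 alternatives, which reached down to 0.00721. GADD45G was not called, at a log2 change of -0.64 (SE 0.18, adjusted p = 0.0894 by DESeq2) from the authors' deposited table. With the correction for GC content it was at -1.12 with an adjusted p of 1.41e-07, and over its 4 alternatives the adjusted p ranged up to 0.234.

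At an unadjusted p under 0.05, 6 of the 32 genes passed with VPC-13789 over DHT, against 5.48% of all genes. BTG2 was the 1 with a higher value, at 0.34 (SE 0.14) in the authors' deposited table. The 5 with lower values were TNFRSF10B, GADD45G, TNFRSF10A (-0.24, SE 0.09), PLK2 (-0.55, SE 0.22) and PPM1D (-0.72, SE 0.34) in the authors' deposited table. The median log2 change was -0.15 over the 32 genes and -0.01 over all genes averaging at least 10. None of the 3 feedback genes was called, with -0.85 for MDM2 (SE 0.68) and -0.45 for TP53INP1 (SE 0.54) in the authors' deposited table. With the correction for GC content MDM2 was at -0.35 and PPM1D at -0.48, and TP53INP1 turned to 0.23. RRM2B had the lowest value of the 32 genes, -1.01 (SE 0.69), and FDXR the highest, 0.70 (SE 0.40), in the authors' deposited table, and the correction for GC content brought them to -0.31 and 0.22. TNFRSF10D, the decoy receptor, was at -0.55 (SE 0.28, adjusted p = 0.406 by DESeq2) in the authors' deposited table, with a recovered level of 1251 against 1833 with DHT.

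These values followed the GC content of the transcripts, as did those of other genes. Across the 32 genes, the log2 change with VPC-13789 over DHT had a Spearman correlation of 0.779 with GC content, and across 10777 genes averaging at least 100 it was 0.83. Genes are not independent replicates, and the correlation only describes these libraries. The 10 genes under 45% GC were all negative, with a median of -0.48, where all genes of that range had a median of -0.55. Of the 12 genes over 55% GC, 11 were positive, with a median of 0.39 against 0.40 over all genes of that range. RRM2B (36.4% GC), MDM2 (41.9%) and ZMAT3 (39.5%) belong to the first set, and FDXR (64.3%), PHLDA3 (59.6%) and BAX (58.9%) to the other. TNFRSF10B and TNFRSF10A, at 50% and 50.1%, lie in the middle of the range. GADD45G, at 63.9%, had a negative value where all the other genes over 55% had positive ones.

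**Figure D3:**
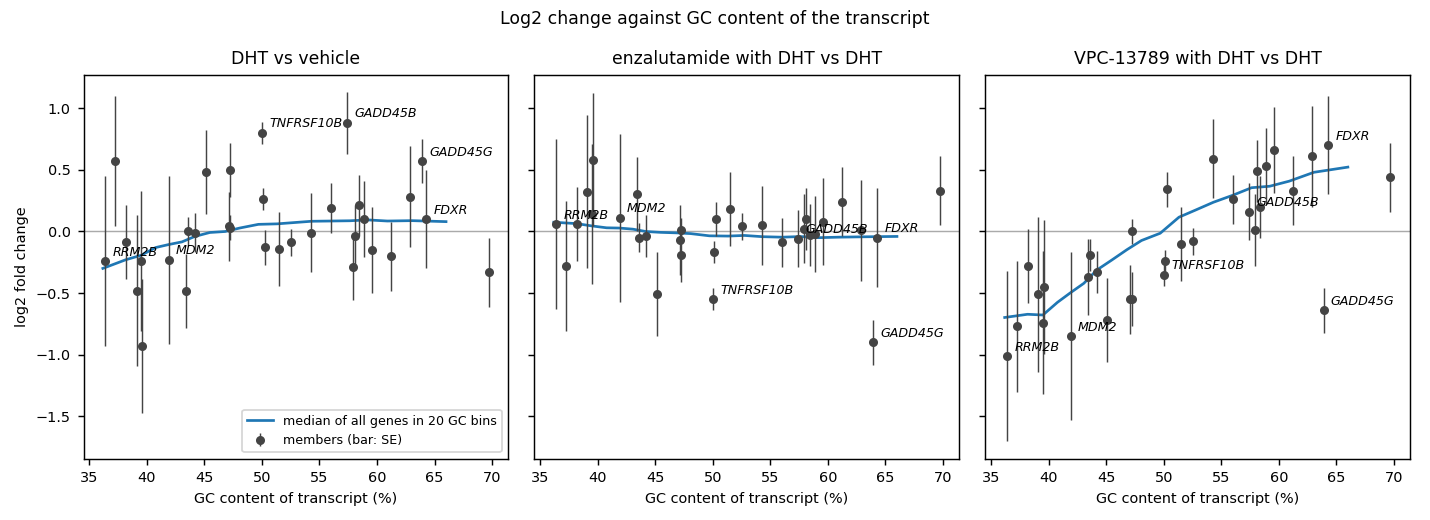
Log2 change of the 32 genes (points, bars of 1 SE) against the GC content of the longest coding transcript (percent) for DHT against vehicle and for each compound with DHT against DHT; the line is the median of all genes averaging at least 100 in 20 GC bins. In the VPC-13789 panel most points follow the line, which climbs with GC content, while GADD45G at -0.64 lies far under it.

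The same correlation was weaker for DHT against vehicle, 0.227 over the 32 genes and 0.503 over all genes, and for enzalutamide over DHT, -0.1 and -0.323. Without DHT it was 0.728 and 0.785 for enzalutamide, and 0.764 and 0.753 for VPC-13789. After correction for GC content the count of called genes was 1 with DHT, and 2 with VPC-13789 over DHT, where GADD45G joined TNFRSF10B. Over all genes the same correction gave 381 calls with DHT, against 395 before it, and 543 with VPC-13789 over DHT, against 42 before it.

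Without DHT neither compound called any of the 32 genes. The samples given a compound without DHT are numbered in a block apart from those of the other groups, vehicle included. Whether they were prepared or sequenced apart is not given in the sources used here. Such a difference could not be told apart from the treatment. In the authors' deposited tables of DESeq2, 0.00363% of all genes tested were called with enzalutamide (1 gene) and 0 with VPC-13789. At an unadjusted p under 0.05, 0 of the 32 genes passed with either compound, against 0.675% and 0.769% of all genes. For TNFRSF10B the log2 change was -0.02 with enzalutamide and 0.03 with VPC-13789 in the authors' deposited tables, with an SE of 0.09. GADD45G was at 0.22 and 0.23 in the authors' deposited tables. The 95% interval lay within a 2-fold change in either direction for 26 of the 32 genes with enzalutamide and for 25 with VPC-13789.

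Whether a compound acted differently with and without DHT was tested on the difference of its log2 changes by a Wald test adjusted over all genes. These tests again use the shared DHT group, and a group from the separate block of sample numbers. For enzalutamide, 2 of the 32 genes were called, both lower, against 0.0762% of all genes (0.0689% lower and 0.00725% higher). The difference was -1.12 (SE 0.25, adjusted p = 0.0179) for GADD45G and -0.53 (SE 0.12, adjusted p = 0.0253) for TNFRSF10B. With the correction for GC content these became -0.95 (adjusted p = 0.139) and -0.49 (adjusted p = 0.0676), so neither call held there. Over the 3 alternatives the adjusted p ranged from 0.01 to 0.139 for GADD45G and from 0.0142 to 0.0676 for TNFRSF10B.

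For VPC-13789 the same Wald test called 0 of the 32 genes and 0% of all genes, and 3 of the 32 passed an unadjusted p of 0.05, against 1.43% of all genes. The difference was -0.87 (SE 0.25, adjusted p = 1) for GADD45G and -0.38 (SE 0.12, adjusted p = 1) for TNFRSF10B. With the correction for GC content GADD45G was called at -1.22 with an adjusted p of 0.00261, where the calls over all genes went from 0 to 33. Over its 3 alternatives the adjusted p ranged up to 1.

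VPC-13789 and enzalutamide were compared directly, at their IC90 doses of 3 and 1.5 µM, which differ. With DHT, 0 of the 32 genes differed between them by the Wald test, against 0.0109% of all genes (3 genes, with 0.00725% higher and 0.00363% lower), and 2 passed an unadjusted p of 0.05, against 5.49% of all genes. Neither was called after adjustment. For TNFRSF10B, VPC-13789 minus enzalutamide was 0.20 on the log2 scale (SE 0.09, 95% interval 0.03 to 0.37, adjusted p = 0.51). For SESN1 it was -0.67 (SE 0.30, adjusted p = 0.51), and -0.23 with the correction for GC content. For GADD45G it was 0.26, with an interval of -0.08 to 0.61, and its sign turned to -0.26 with the correction for GC content. The interval lay within a 2-fold difference for 19 of the 32 genes. Without DHT 0 of the 32 genes and 0% of all genes were called by the Wald test, and 0 of the 32 passed an unadjusted p of 0.05 against 0.914% of all genes, with intervals within a 2-fold difference for 26 of the 32. A p that misses the threshold does not show that the compounds act alike.

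The precision of these comparisons differed widely from gene to gene. The SE of the log2 change with DHT ran from 0.09 to 0.69 over the 32 genes, with a median of 0.28, against 0.27 over all genes averaging at least 100. The replicate CV ran from 6.02% to 58.2% with a median of 22.6%, against 22.4% over 10819 genes averaging at least 100. It was over 30% for 8 genes and under 15% for another 8. The highest were RRM2B at 58.2%, MDM2 at 57.6%, FAS at 49.6%, ZMAT3 at 48.6%, TP53INP1 at 45.7% and PMAIP1 at 44.1%. TNFRSF10A, POLH and TNFRSF10B were the lowest, at 6.02%, 6.64% and 7.05%.

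The CV went with the distance of a gene's GC content from 50%, with a Spearman correlation of 0.601 over the 32 genes and 0.544 over 10777 genes. For MDM2 the 95% interval of the DHT change ran from -1.56 to 1.1, so a doubling or halving was not detectable at this precision. The interval lay within a 2-fold change for 22 of the 32 genes with DHT, 24 with enzalutamide over DHT and 19 with VPC-13789 over DHT.

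**Figure D4:**
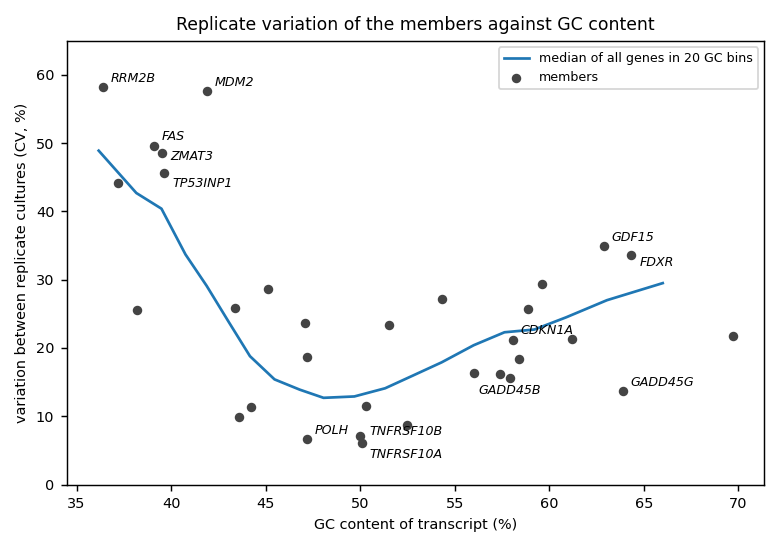
Replicate coefficient of variation (percent, recovered from the deposited SE) of the 32 genes against the GC content of the transcript (percent); the line is the median of all genes averaging at least 100 in 20 GC bins. The TRAIL receptors TNFRSF10A and TNFRSF10B, near 50% GC, have a CV of 6.02% and 7.05%, and RRM2B and MDM2, at 36.4% and 41.9%, of 58.2% and 57.6%.

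Further genes of the pathway came from lists of p53 targets, p53 regulators, TRAIL and Fas signalling, the BCL2 family and genes lowered through p21 and the DREAM complex. Of 51 further p53 targets, 47 were tested with DHT, and 1 rose and 1 fell, where 1.47% of all genes tested rose and 0.392% fell. BTG1, an antiproliferative relative of BTG2, rose by 0.74 (SE 0.10, adjusted p = 4.62e-11, DESeq2, in the authors' deposited table). SUSD6, a p53-induced membrane protein gene, fell by 0.62 (SE 0.11, adjusted p = 5.33e-07, DESeq2, in the authors' deposited table). The list's median log2 change was -0.02, and none of it was called in the other 8 comparisons.

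Of 20 genes of p53 and its regulators, 1 rose with DHT and none fell, against the same 1.47% and 0.392% of all genes. It was USP10, a deubiquitinase that stabilizes p53, which rose by 0.32 (SE 0.10, adjusted p = 0.0459, DESeq2, in the authors' deposited table). MDM4, a relative of MDM2, averaged 286 normalized counts and stood at -0.14 (SE 0.46) on the log2 scale with DHT in the authors' deposited table. With VPC-13789 over DHT the median of these 20 genes was -0.36, and -0.13 after correction for GC content, their median GC content being 45.7%. None of the 21 measured genes of TRAIL and Fas signalling, 13 of the BCL2 family and 24 lowered through p21 and DREAM was called in any of the 9 comparisons by these tests. With DHT, 0, 1 and 0 of them passed an unadjusted p of 0.05, against 4.43% of all genes. With VPC-13789 over DHT it was 0, 3 and 1 of them, against 5.48% of all genes. Between the compounds with DHT it was 1, 3 and 1, against 5.49%. CASP8, the caspase that death receptors activate, averaged 219 and stood at -0.24 with DHT on the log2 scale (SE 0.26) in the authors' deposited table. TNFSF10, which encodes TRAIL, averaged 1.42 normalized counts.

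The gene next to TNFRSF10B, RHOBTB2, was looked at after its values were seen. RHOBTB2, averaging 746 normalized counts, rose by 0.66 with DHT (SE 0.20, adjusted p = 0.0446, DESeq2, in the authors' deposited table). With enzalutamide over DHT its log2 change was -0.43, and with VPC-13789 over DHT it was 0.07 (SE 0.20 each). It was called in neither, unlike TNFRSF10B. RHOBTB2 lies on the opposite strand at 22987417 to 23020199 and overlaps the end of TNFRSF10B at 23020133. Whether the counting used strand is not given in the sources used here, so reads of that overlap cannot be told apart. The same holds, among others, for TP53INP1 with NDUFAF6, XPC with LSM3, POLH with GTPBP2, FAS with ACTA2 and TNFRSF10A with AC100861.1. These overlap on opposite strands in GENCODE 29. TNFRSF10C, averaging 36.7, overlaps AC107959.4, averaging 76.2, on the same strand.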

How the data were processed

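Polyadenylated RNA of 18 LNCaP samples was sequenced. Per the submitters' processing notes, FastQC, STAR 2.6.1c, GRCh38.p12, featureCounts and DESeq2 were used; whether counting used strand is not given in the sources used here. Per the labels, RNA integrity numbers were 9.5 to 10. The 5 tables hold 27599 rows each and no values per sample, so depth and counts per library are unknown. The average normalized count is a signal on a linear scale deposited by the authors. The fold change and its SE are log2 values, the Wald statistic is a score, and the p-values of these 5 tables, raw or adjusted, are as deposited by the authors. Those of the differences between compounds, the interactions with DHT and the alternative settings were computed here by Wald tests. Rows with a date in place of a symbol (25) were left out. The plan allowed for counts per sample, but the authors' DESeq2 Wald test was used, as the files hold results only.

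Levels and replicate CV were recovered from the averages, log2 changes and SE. Differences between compounds used the mean of the 2 squared SE and interactions with DHT their sum, in Wald tests with Benjamini-Hochberg adjustment over all genes, tested on simulated data. These assume that groups vary equally. The GC correction subtracted the median log2 change of genes of like GC content (20 bins, genes averaging at least 100). It and the median centring kept the deposited SE, so their p-values treat the subtracted median as known. Counts of calls under them are descriptive. GC content and coordinates came from GENCODE 29 on GRCh38 (99.0% of genes and 32 of 32 members), promoters from RefSeq on GRCh38.p14. Members and lists were chosen with earlier results of these data known. Named genes were all members, every called gene of the further lists (up to 6 a list), MDM4, TNFSF10 and CASP8; some further genes are not reported here. Python 3.11.15, pandas 2.3.3, numpy 2.4.6, scipy 1.17.1 and matplotlib 3.10.9 were used.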

Additional observations from a re-analysis of the deposited data

Results flagged for a closer look

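The effect of enzalutamide differed with and without DHT for both genes called by the Wald test of that difference. For GADD45G the effect with DHT minus that without was -1.12 on the log2 scale, from changes of -0.90 and 0.22 in the authors' deposited tables. For TNFRSF10B it was -0.53, from changes of -0.55 and -0.02 in the authors' deposited tables. Neither call held under the correction for GC content, where the differences were -0.95 and -0.49.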

How the results depend on the processing

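No paired analysis was possible because the tables carry no values per sample, and leave-one-out fits, edgeR, other size factors and a replicate block were therefore not run. The fixed alternatives for the number of called genes were no independent filtering, genes averaging at least 10 only, GC correction, median centring and, for differences between compounds, the sum of squared SE. The count moved with GC correction to 1 for DHT, 2 for VPC-13789 over DHT, 0 for the enzalutamide interaction and 1 for the VPC-13789 interaction, and with median centring to 0 for VPC-13789 over DHT. Over all genes, GC correction moved the calls from 42 to 543 for VPC-13789 over DHT, from 3 to 641 between the compounds with DHT and from 0 to 33 for the VPC-13789 interaction, and the sum of squared SE gave 0 between the compounds. Median centring shifted log2 values by at most 0.018.

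Single values were followed for all 32 genes in the 5 deposited comparisons. In the 4 derived comparisons they were followed for GADD45B, GADD45G, SESN1, TNFRSF10A and TNFRSF10B alone. Of these values 37, none of them called, turned sign under GC correction. With DHT they became 0.14 for CCNG1, 0.03 for SPATA18 and 0.06 for RRM2B. With enzalutamide over DHT they became 0.03 for BAX, -0.01 for RRM2B and 0.01 for TP53I3. With VPC-13789 over DHT they became 0.39 for CCNG1, -0.07 for PLK3, -0.19 for GADD45B, 0.23 for TP53INP1, -0.08 for BBC3, -0.03 for AEN, 0.12 for TRIAP1, 0.16 for FAS, -0.35 for TNFRSF10C, 0.05 for SESN1 and -0.16 for TP53I3. With enzalutamide alone they became 0.10 for CCNG1, -0.09 for PLK3, 0.02 for MDM2, 0.18 for TP53INP1, -0.08 for BAX, -0.06 for AEN, 0.04 for TRIAP1, 0.03 for SPATA18, -0.03 for DDB2, 0.06 for SESN1 and -0.06 for TP53I3. With VPC-13789 alone they became 0.12 for CCNG1, 0.01 for ZMAT3, 0.08 for MDM2, 0.10 for TP53INP1, 0.06 for TRIAP1, 0.14 for FAS and 0.08 for SESN1. Between the compounds with DHT, where genes beyond those named above were not followed, they became -0.18 for GADD45B and -0.26 for GADD45G. The cause was not tested.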
